A study of Danio rerio with 6 samples.

Results

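E2 ubiquitin-conjugating enzymes were followed in zebrafish larvae of the mutant line IT325 and in their wild-type siblings. The members were taken by name, as every gene of the count table whose Ensembl gene name begins with ube2 in either case, which gave 38 of 32105 genes. The study sequenced 3 RNA libraries of homozygous IT325 (allele t24980) mutants and 3 of homozygous wild-type siblings, all at 5 days post fertilization (dpf), and the labels give the strain as a mix of wild-type strains. IT325 is a recessive nonsense mutation in the Ikaros gene, ikzf1, and the truncated transcription factor keeps the zinc fingers that bind DNA but has lost the pair at the C-terminus. Per the methods each genotype was represented by 3 individual fish. The comparison asked which transcripts differ when Ikaros is truncated.

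Ubiquitin is a small protein that marks other proteins for degradation, sorting or signalling. An E1 enzyme activates it, an E2 enzyme carries it as a thioester on a cysteine, and an E3 ligase brings the loaded E2 to its target, while some E2 enzymes carry a related modifier such as SUMO or NEDD8 instead. Maturing red cells depend on this system to clear organelles and older proteins: in mouse reticulocytes UBE2O, a large enzyme that acts as E2 and E3 at once, takes part in that clearance, and in human erythroblasts UBE2H works with the CTLH ligase.

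Total counts were 40732782 to 52954765 in mutant libraries and 37390073 to 53279243 in wild-type libraries. The labels call the material whole body, but the markers found for skeletal muscle, neural tissue, retina and lens were almost absent from both genotypes. Some listed markers matched no gene by name and were not read. Levels are given in CPM, counts per 1000000 of a library size scaled by trimmed means of M values (TMM). Summed over the 8 skeletal muscle markers found of 17 listed, mutants had 5.83 to 7.42 CPM, against 5.66 to 7.77 CPM in wild type. Over the 8 neural markers found of 13 listed, the sums were 0.987 to 8.70 CPM for mutants, against 1.42 to 17.1 CPM for wild type. Of 12 retina and lens markers listed 7 were found, and 5 of these (opn1mw1, gnat1, crygm2d1, cryaa and cryba1b) had no count in any library. Blood markers were abundant, with 22628 to 33504 CPM over 17 erythroid markers in mutants, against 6139.7 to 9678 CPM in wild type, and 32891 to 33154 CPM over 8 neutrophil markers in mutants, against 21583 to 22189 CPM in wild type. Of the neutrophil markers, 3 were higher (lyz, npsn and mmp9), 2 lower (mmp13a and ncf1) and 3 not called, and lyz, the most abundant, carried most of the difference in the sum, at 19405 CPM for mutants, against 11000 CPM for wild type on average. Over 6 macrophage markers the sum was lower in mutants, at 2113 to 2456 CPM, against 2850 to 2996 CPM in wild type. Of these markers, 2 were higher, 2 lower and 2 not called. Ikzf1 itself was at 1167, 1767 and 1149 CPM in mutant libraries, against 276, 306 and 299.9 CPM in wild-type libraries, a log2 fold change of 2.21 (SE 0.174, adjusted p 1.17e-04 in edgeR).

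All 38 E2 genes passed the filter on low counts, and most differed little between the genotypes. In the quasi-likelihood test of edgeR, the source of every adjusted p given here, 4 were higher and 4 lower in mutants past an adjusted p of 0.05, and 30 did not pass. Thus 21.1% of the members were called, while among all 17828 genes tested 33.9% were (17.5% higher and 16.4% lower). The members had a median log2 fold change of 0.05, against -0.01 over all genes, and a median absolute size of 0.18, against 0.36. Their median standard error was 0.0934, against 0.164 over all genes. For 19 of the 38 the libraries of one genotype did not overlap with those of the other, which held for 50.5% of all genes. In bulk RNA, a change in the number of cells of a type and a change in RNA per cell cannot be told apart.

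Past the threshold, ube2r2, ube2h, ube2f and ube2l3b were higher and ube2o, ube2d4, ube2q2 and ube2j1 lower. The calls of ube2r2, ube2h, ube2f and ube2q2 held under each of the 14 alternatives tried, and the other 4 were lost under some. The lower calls numbered 2 without mutant replicate 1, and 1 in each fit without mutant replicate 2, mutant replicate 3, wild type replicate 2 or wild type replicate 3. Without wild type replicate 3 there were 8 higher calls.

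**Figure D1:**
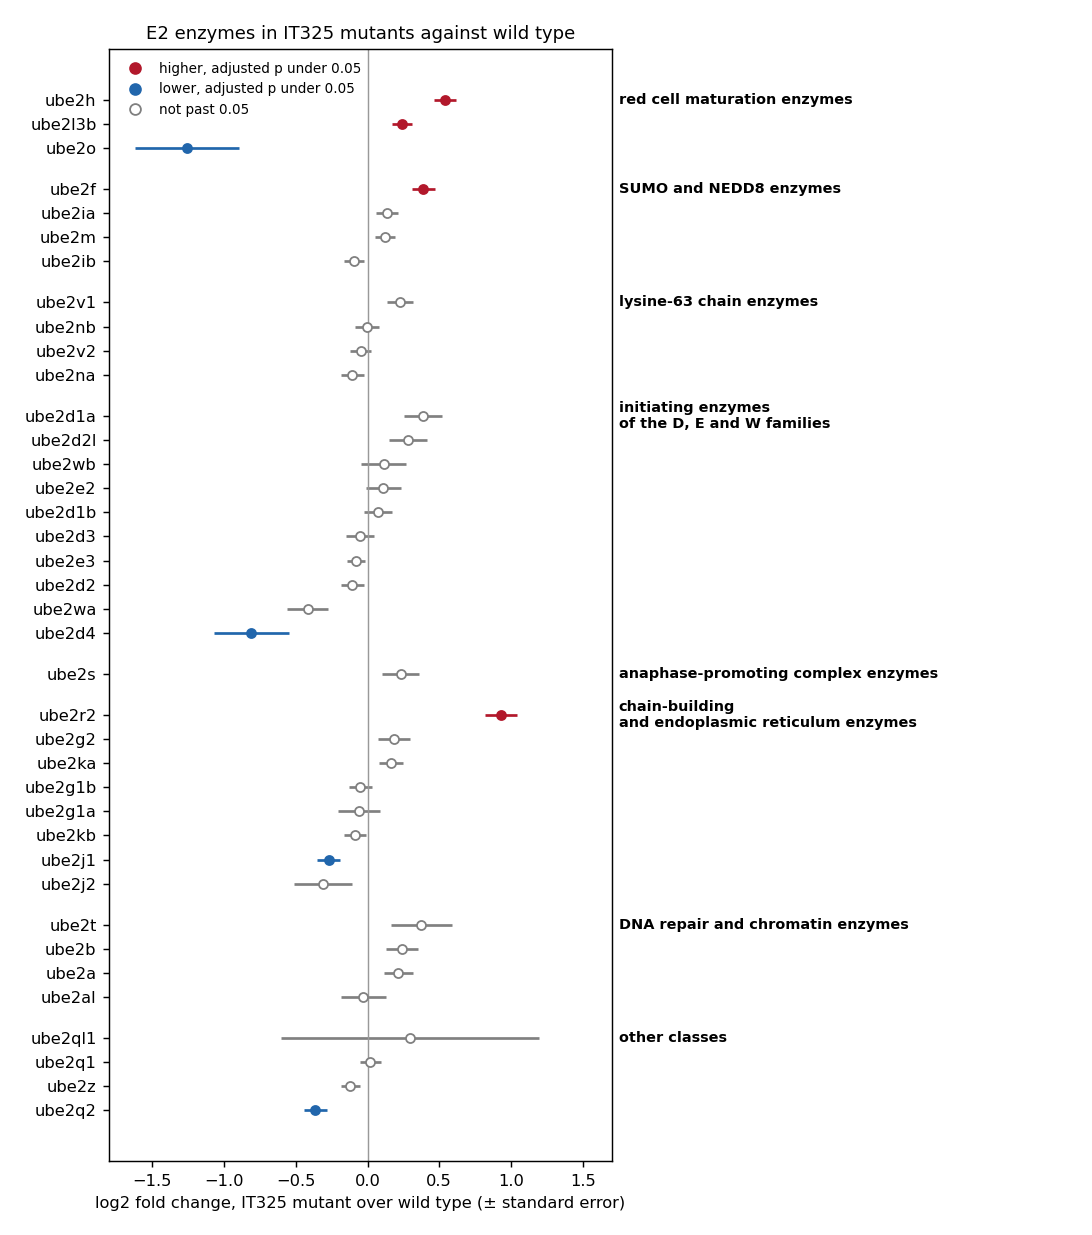
Log2 fold changes of the 38 E2 genes, IT325 mutant over wild type, with bars of 1 standard error from edgeR, grouped by the known roles of the enzymes. Filled points are past an adjusted p of 0.05 (4 higher in red, 4 lower in blue), with ube2r2 at 0.93 and ube2o at -1.26 at the ends.

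Ube2h, ube2o and ube2l3b were set apart as a group of red cell enzymes. The red cell roles given above are those of UBE2O and UBE2H, and ube2l3b is here by choice of the group alone. The 3 did not move together: ube2h and ube2l3b rose and ube2o fell. Ube2h is the E2 partner of the CTLH ligase. Mutant libraries held 80.0, 69.8 and 71.3 CPM of ube2h, against 49.7, 51.3 and 50.8 CPM in wild-type libraries. Each mutant library lay above each wild-type library, and the wild-type values were close together. This was a 1.46-fold rise, with a log2 fold change of 0.54 (SE 0.0763, adjusted p 9.16e-04), and the change lay at 0.44 to 0.58 over the alternatives.

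Ube2l3b belongs to the UBE2L3 family, which in humans passes ubiquitin to ligases of the HECT and RING-between-RING (RBR) classes. Its level was 81.7, 82.3 and 84.2 CPM in the mutant libraries, against 66.2, 69.6 and 74.1 CPM in wild-type libraries. The genotypes did not overlap, and the mutant values were the closer together. The rise was 1.18-fold, at 0.24 (SE 0.0699, adjusted p 0.0276) on the log2 scale. The call was lost without scaling factors, with the replicate block, and without mutant replicate 1, 2 or 3 or wild type replicate 1 or 2, with log2 fold changes of 0.14 to 0.26 and adjusted p-values of 0.0505 to 0.222. The paralog ube2l3a was not analysed here.

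Ube2o was scarce and went the other way. The name of this gene comes from a name list alone, without a match by neighbouring genes. It had 44, 30 and 19 counts in the mutant libraries, against 53, 77 and 102 in the wild-type libraries. Scaled, these were 0.904, 0.752 and 0.447 CPM for mutants, against 1.39, 1.82 and 1.84 CPM for wild type, and all mutant libraries lay under all wild-type libraries. The change was -1.26 (SE 0.360, adjusted p 0.0266) on the log2 scale. Ube2o was the only member called with a change of at least 2-fold, which 15% of all genes were. Its call was lost with the replicate block and without mutant replicate 2 or 3 or wild type replicate 2 or 3, at log2 fold changes of -1.31 to -1.01 and adjusted p-values of 0.0535 to 0.0719.

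Most red cell markers of the same libraries moved further, but not all. All 17 erythroid markers were higher in mutants, with a median log2 fold change of 1.73 and a range of 1.0957 to 2.6353. Hbaa1, an alpha globin gene, was the most abundant. All 8 heme biosynthesis genes found, of which alas2, urod and fech are also among the erythroid markers, were higher too. Their median was 1.34 and their range 0.44393 to 1.922. The smallest erythroid rise was less in size than the fall of ube2o. The smallest heme rise, that of alas1, was less than the rise of ube2h. Alas1 is not among the erythroid markers, and each of those rose further than ube2h. The log2 ratio of ube2h counts to the summed erythroid markers averaged -8.51 ± 0.200 for mutants, against -7.24 ± 0.335 for wild type (SD over 3 libraries each). The ratio differed by -1.27 for ube2h, by -1.57 for ube2l3b and by -3.11 for ube2o. Each of the 3 ratios was lower in every mutant library than in every wild-type library. This direction follows from the rise of the markers themselves, so the ratios are a description and no test of them is given. Whether the erythroid shift had a part in the 3 E2 values was not tested.

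**Figure D2:**
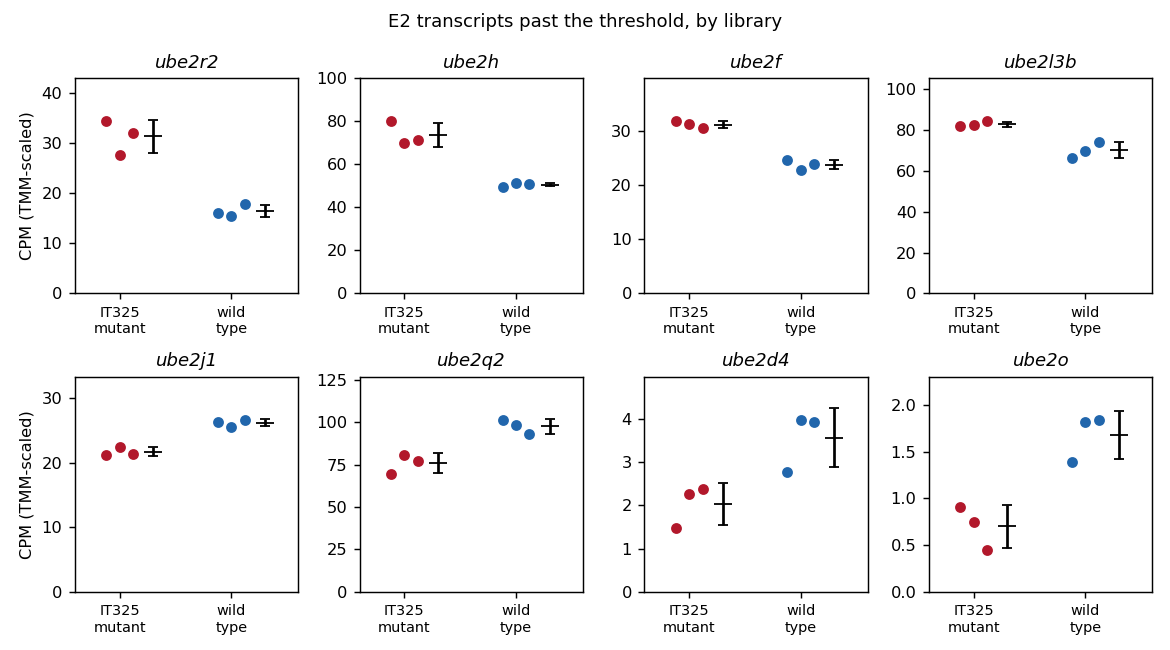
Levels of the 8 E2 transcripts past the threshold in each library, in CPM of the TMM-scaled library size, with IT325 mutants in red on the left and wild type in blue on the right. Black marks are the mean and the SD of 3 libraries, and each axis starts at 0. The genotypes do not overlap in any of the 8 panels, but these were chosen by the test between the same libraries. Among all genes tested 50.5% have no overlap.

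Of 8 chain-building and endoplasmic reticulum enzymes, 1 rose and 1 fell. Ube2r2, a relative of CDC34 that builds ubiquitin chains with cullin-RING ligases, had the largest rise of the 38 members. Mutant libraries held 34.2, 27.6 and 31.9 CPM of it, against 15.9, 15.4 and 17.9 CPM in wild-type libraries. The lowest mutant value was above the highest wild-type value. The rise was 1.90-fold, at 0.93 (SE 0.110, adjusted p 3.55e-04) on the log2 scale, and lay at 0.82 to 1.01 over the alternatives. The related cdc34a and cdc34b, which carry no ube2 name and were chosen for mention after their values were seen, were at -0.04 and -0.03.

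Ube2j1 is a membrane-anchored E2 that serves in the degradation of misfolded proteins of the endoplasmic reticulum. It stood at 21.2, 22.5 and 21.4 CPM in mutant libraries, against 26.3, 25.5 and 26.6 CPM in wild-type libraries. The spread within each genotype was small and there was no overlap. Its log2 fold change was -0.27 (SE 0.0807, adjusted p 0.0313), and the call was lost without a filter, with the replicate block and in all 6 fits without 1 library, at -0.29 to -0.25 with adjusted p-values of 0.0574 to 0.0883. Ube2j2, in the same membrane, was at -0.31 (SE 0.201, adjusted p 0.267). The other 5 were ube2g2, of the same degradation route, ube2g1a and ube2g1b, and ube2ka and ube2kb, which build lysine-48 chains. They ran from -0.09 for ube2kb to 0.18 for ube2g2, and none passed.

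Of the 4 enzymes of other modifiers, ube2f was called. It carries NEDD8, a modifier that activates cullin ligases, to cullin 5. Its levels were 31.7, 31.1 and 30.4 CPM in mutant libraries, against 24.5, 22.8 and 23.9 CPM in wild-type libraries. The values were tight within each genotype and did not overlap. The rise was 1.31-fold, at 0.39 (SE 0.0788, adjusted p 0.00572) on the log2 scale, and lay at 0.29 to 0.41 over the alternatives. Ube2m, which carries NEDD8 to other cullins, was at 0.12 (SE 0.0694, adjusted p 0.211). The SUMO enzymes ube2ia and ube2ib, copies of UBC9, were at 0.14 (SE 0.0784, adjusted p 0.216) and -0.09 (SE 0.0692, adjusted p 0.326).

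Initiating enzymes of the D, E and W families place a first ubiquitin on targets of many ligases. Of 10 members, 1 fell and 9 did not pass. Ube2d4 had 72, 90 and 101 counts in mutant libraries, against 106, 169 and 218 in wild-type libraries, or 1.48, 2.26 and 2.38 CPM for mutants, against 2.78, 3.99 and 3.94 CPM for wild type. The genotypes did not overlap. Its log2 fold change was -0.81 (SE 0.261, adjusted p 0.0417), and the call was lost without any 1 of the libraries other than wild type replicate 1, at -0.93 to -0.62 with adjusted p-values of 0.0526 to 0.123. The ube2d genes encode near-identical proteins. How far their reads can be told apart was not tested, so the values of each copy are uncertain.

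Of the other ube2d genes, ube2d2 averaged 82.9 ± 6.78 CPM for mutants, against 89.2 ± 4.34 CPM for wild type, and ube2d3 31.6 ± 0.853 CPM for mutants, against 32.7 ± 3.62 CPM for wild type (SD over 3 libraries each). Neither passed, with log2 fold changes of -0.11 (SE 0.0817, adjusted p 0.35) and -0.05 (SE 0.0975, adjusted p 0.722). Nearest to the threshold were ube2d1a at 0.39 (SE 0.135, adjusted p 0.0561) and ube2wa at -0.42 (SE 0.143, adjusted p 0.0524), whose family puts ubiquitin on the N-terminus of targets. Ube2d1a was called with median-ratio factors, with DESeq2 and without wild type replicate 3, and ube2wa with upper-quartile factors, without factors and with TMM over all but the 50 most abundant genes. The other 5, ube2d2l, ube2wb, ube2e2, ube2d1b and ube2e3, ran from -0.08 for ube2e3 to 0.28 for ube2d2l.

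Lysine-63 chains, a signal in DNA damage tolerance and innate immunity, are made by UBC13 (ube2na and ube2nb) with the catalytically inactive partners ube2v1 and ube2v2. Of these 4, 0 passed in edgeR or in DESeq2, and 1 had an unadjusted p under 0.05 in edgeR. It was ube2v1, with 62.1, 57.8 and 54.5 CPM in mutant libraries, against 47.3, 46.6 and 55.1 CPM in wild-type libraries. The overlap came through wild type replicate 3. Its log2 fold change was 0.23 (SE 0.0909, adjusted p 0.0868), and without that library it was called at 0.31 (adjusted p 0.0267). Under no other alternative was ube2v1 called, and its change lay at 0.12 to 0.31 over the alternatives. Ube2na, ube2nb and ube2v2 were at -0.11, -0.0029 and -0.05.

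Among the 4 enzymes of DNA repair and chromatin, 0 passed in edgeR or in DESeq2, and 0 had an unadjusted p under 0.05 in edgeR. They were ube2a, ube2al and ube2b, homologs of yeast RAD6, which ubiquitinates PCNA and histone H2B, and ube2t, the E2 of the Fanconi anaemia pathway. Log2 fold changes were 0.22 for ube2a, -0.03 for ube2al, 0.24 for ube2b and 0.37 for ube2t. For ube2t the mutant libraries held 6.08, 5.84 and 6.23 CPM, against 3.64, 4.08 and 6.24 CPM in wild-type libraries. Wild type replicate 3 was level with the mutants and the other wild-type libraries were lower. Without it, ube2t was called at 0.65 (adjusted p 0.0225) and ube2a at 0.31 (adjusted p 0.0421). Neither was called under any other alternative. Over the alternatives the change lay at 0.23 to 0.65 for ube2t and at 0.11 to 0.31 for ube2a.

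Ube2s extends lysine-11 chains on substrates of the anaphase-promoting complex. Its level was 62.9, 49.7 and 50.3 CPM in mutant libraries, against 40.0, 45.7 and 52.98 CPM in wild-type libraries, with overlap, and its log2 fold change was 0.23 (SE 0.129, adjusted p 0.2). In the same libraries 8 of 25 cell cycle genes were higher and 0 lower, with a median log2 fold change of 0.27. Thus 32% of them were called, beside 33.9% of all genes tested (17.5% higher and 16.4% lower). The number of cell cycle genes called was 3 without mutant replicate 1 and 4 without mutant replicate 2. For the wild type it was 2 with replicate 1 left out and 3 with replicate 2 left out. It was 2 without scaling factors and 5 with upper-quartile factors. Whether cycling cells had a part in the values of ube2s and ube2t was not tested.

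Of the 4 remaining members, ube2q2 was called. UBE2Q enzymes carry a long N-terminal extension beside the catalytic fold. Ube2q2 stood at 69.7, 80.9 and 77.0 CPM in mutant libraries, against 101, 98.7 and 92.8 CPM in wild-type libraries. All mutant libraries lay under all wild-type libraries. The log2 fold change of ube2q2 was -0.36 (SE 0.0795, adjusted p 0.00818), and lay at -0.46 to -0.30 over the alternatives. Ube2q1 was at 0.02 (SE 0.0728, adjusted p 0.849), and ube2z, which is loaded by the E1 enzyme UBA6, at -0.12 (SE 0.0663, adjusted p 0.2). Ube2ql1 was barely detected, with 9, 9 and 12 counts in mutant libraries, against 0, 10 and 17 in wild-type libraries, where a count of 0 allows up to 0.0786 CPM in wild type replicate 1. A difference was not detectable at this depth (log2 fold change 0.30, SE 0.897).

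Zebrafish keep many E2 genes as a pair of copies, and a ratio of counts within a library does not depend on scaling. There were 7 pairs of members whose names differ in a final a or b, of which ube2a and ube2b are separate genes in humans too. No member of a pair was called on its own. The log2 ratio of ube2ka to ube2kb was -0.786, -0.758 and -0.784 in mutant libraries, against -1.002, -1.01 and -1.07 in wild-type libraries. The mutant ratios were all higher, by 0.25 on average. The ratio of ube2ia to ube2ib was higher in mutants by 0.23 and that of ube2d1a to ube2d1b by 0.32, both without overlap.

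For ube2wa over ube2wb the log2 ratio was 0.315, 0.0695 and 0.418 in mutant libraries, against 0.832, 0.889 and 0.660 in wild-type libraries. The mutant ratios were all lower, with a difference of -0.53. Ratios of ube2a to ube2b, ube2g1a to ube2g1b and ube2na to ube2nb overlapped, with differences of -0.02, -0.0012 and -0.10. The 4 pairs without overlap each had an exact two-sided permutation p of 0.1, the smallest possible, and 0.175 after Benjamini-Hochberg adjustment over the 7 pairs, so no pair could pass 0.05. Among single genes 50.5% had no overlap, and the share among ratios of other gene pairs was not computed, so nothing is read from 4 of 7. Copies can share reads, which makes the ratios uncertain.

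**Figure D3:**
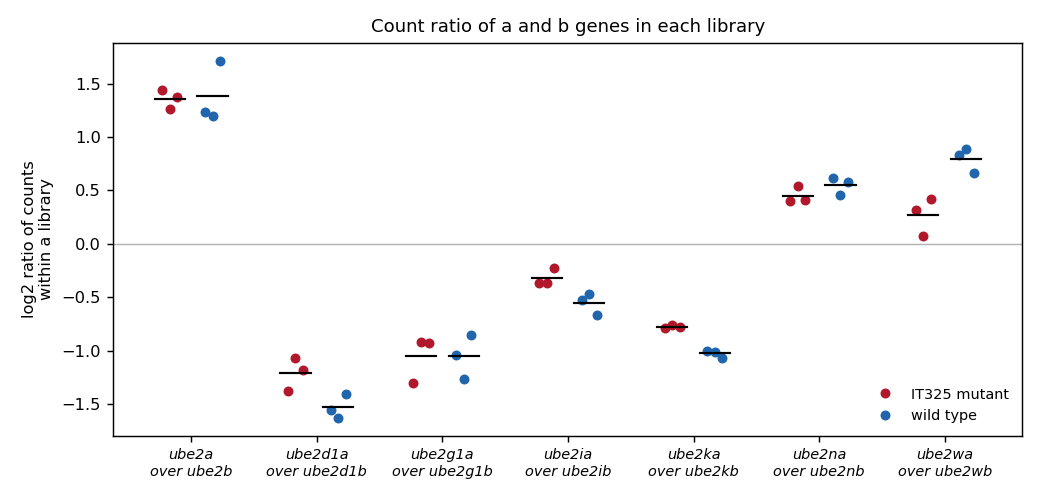
Log2 ratio of counts of the a gene to the b gene within each library for the 7 pairs, with IT325 mutants in red to the left of wild type in blue and black bars at the means of 3 libraries. The ratios of ube2d1a, ube2ia and ube2ka to their b copies lie higher in mutants without overlap, and that of ube2wa to ube2wb lies lower.

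Other steps of the pathway were read from the same fit, where genes beyond the largest rise and fall of a list were chosen for mention after their values were seen. The share to set beside the counts of each list is that of all genes tested, 33.9% called (17.5% higher and 16.4% lower). Of 10 E1 enzymes and subunits, 2 were higher and 1 lower, with a median log2 fold change of -0.06. Higher were sae1, a subunit of the SUMO E1, at 0.50 (SE 0.121, adjusted p 0.0134), and nae1, a subunit of the NEDD8 E1 that loads ube2f and ube2m, at 0.40 (SE 0.0826, adjusted p 0.00612). The other subunits of these E1 enzymes, uba2 for SUMO and uba3 for NEDD8, did not pass and had the opposite sign. They were at -0.19 (SE 0.0759, adjusted p 0.0824) and -0.20 (SE 0.0878, adjusted p 0.121). Uba7, which in mammals activates ISG15, was lower at -0.48 (SE 0.0818, adjusted p 0.00249). Among 10 proteins with an E2 fold or E2 activity but no ube2 name, atg3, the E2-like enzyme that lipidates LC3 in autophagy, was higher at 0.29 (SE 0.0821, adjusted p 0.0268) and 0 were lower. That call was lost without scaling factors, with the replicate block, and without mutant replicate 1, wild type replicate 1 or wild type replicate 3.

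Of 11 ubiquitin and ubiquitin-like genes tested, 2 were higher and 2 lower. Isg15, an interferon-induced modifier, was at 1.17 (SE 0.225, adjusted p 0.00537) and the polyubiquitin gene ubc at 0.25 (SE 0.0831, adjusted p 0.05), just within the threshold, while sumo2b, a SUMO gene, had the largest fall at -0.40 (SE 0.104, adjusted p 0.0191). The number called was 1 without mutant replicate 1, wild type replicate 1 or wild type replicate 2, and 2 without mutant replicate 2 or mutant replicate 3.

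Of the CTLH ligase, the partner of ube2h, 8 of 13 listed genes were found, and 2 were higher and 0 lower: rmnd5b at 0.33 (SE 0.0759, adjusted p 0.0111) and ranbp9 at 0.26 (SE 0.0800, adjusted p 0.034). The number was 1 without mutant replicate 1, mutant replicate 2, wild type replicate 2 or wild type replicate 3. Of 16 RBR ligases listed, a class served by UBE2L3, 11 were found, and 3 of these were higher and 2 lower. Arih1, arih1l, rnf14, rnf31 and cul9 matched no gene by name and were not read. Ankib1b was at 0.63 (SE 0.0792, adjusted p 5.10e-04), rbck1 at 0.60 (SE 0.0711, adjusted p 3.70e-04) and ankib1a at 0.56 (SE 0.175, adjusted p 0.0384), while rnf144ab was at -0.59 (SE 0.142, adjusted p 0.0125) and rnf216 at -0.35 (SE 0.0750, adjusted p 0.00798). Of 17 anaphase-promoting complex genes, 2 were higher and 0 lower, anapc15 at 0.55 (SE 0.139, adjusted p 0.016) and fzr1b at 0.53 (SE 0.166, adjusted p 0.0388). Neither was called without mutant replicate 1, mutant replicate 2, wild type replicate 1 or wild type replicate 2, and 1 gene was called without wild type replicate 3. The medians were 0.11 for CTLH, -0.02 for RBR and 0.08 for anaphase-promoting complex genes.

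Medians of erythroid and T cell markers lay further from 0 than those of the pathway lists. Of 15 T cell markers tested, 14 were lower in mutants, with a median log2 fold change of -1.35, beside 17 of 17 higher for the erythroid markers. The number of T cell markers called was 10 without mutant replicate 1 or mutant replicate 3, and 11 without a filter. None of the 38 E2 members was as far from 0 as the median erythroid marker. Whether the mix of blood cells had a part in the E2 values was not tested.

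**Figure D4:**
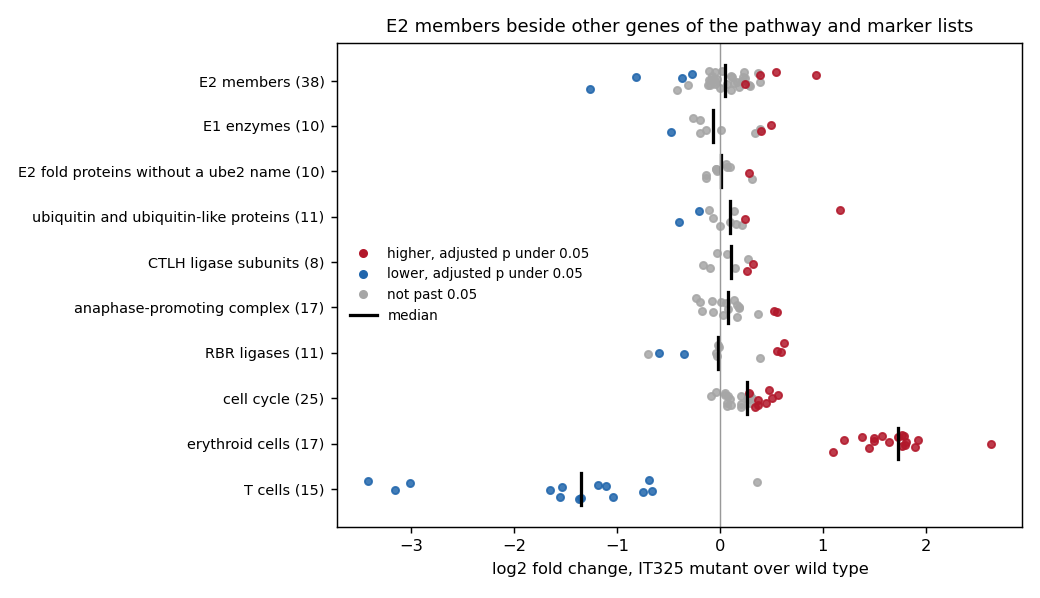
Log2 fold changes, IT325 mutant over wild type, of the 38 E2 members beside genes of pathway and marker lists, with the number of genes tested in parentheses, 1 point per gene and a black bar at each median. The median is 0.05 for the E2 members, 1.73 for erythroid cells and -1.35 for T cells.

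As a sum, the E2 genes held 0.141%, 0.144% and 0.146% of all counts in mutant libraries, against 0.149%, 0.149% and 0.154% in wild-type libraries, without overlap. On the TMM-scaled library size the sum was 1530, 1474 and 1470 CPM for mutants, against 1457, 1416 and 1487 CPM for wild type, with overlap. The 50 most abundant genes took 28.5% to 30.7% of the counts in mutant libraries, against 24.5% to 25.0% in wild-type libraries. Without scaling factors the median over all genes was -0.11 and that of the members -0.06, 3 members were called higher and 5 lower, and 39.4% of all calls were higher, against 51.7% with TMM.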

How the data were processed

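Per the methods, poly-A RNA of single larvae was sequenced from stranded libraries. The counts held little of the muscle, neural, retina and lens markers found, which is at odds with that source. Per the labels and methods, the authors mapped read pairs with STAR 2.5.2b-1 against an Ensembl annotation and summed them per gene with featureCounts 1.6.0.1. The deposited table holds raw counts with no scaling, and all 6 columns were used. Of 32105 genes, 26269 (81.8%) had a symbol in a separate name list. E2 genes were given zebrafish names from RefSeq (assembly GRCz12tu, used for names and gene order only) where at least 4 neighbouring genes were shared. This named 36 of 38 members, and ube2o and ube2m rest on the name list alone. The RefSeq genes ube2l3a, ube2e1 and ube2c matched no row. A listed gene with a final a or b and no match was also sought without that letter, where a single row fitted. Ankib1b was matched to ANKIB1 in this way, and its letter was not checked by neighbouring genes.

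Genes were tested in edgeR 4.0.16 (R 4.3.3) with filterByExpr (minimum count 10), TMM factors and a robust quasi-likelihood fit of genotype alone. P-values were Benjamini-Hochberg adjusted over all 17828 genes tested, with a threshold of 0.05. Fold changes put mutants over wild type (prior count 0.125), and each SE is the log2 fold change divided by the root of F. Ratios had 0.5 added to each count and exact permutation tests. A floor of 3 counts stood for a count of 0 and covers counting error only. P-values set the difference between genotypes against the spread among these libraries, 3 per genotype. Alternatives were 4 other scalings, 2 other filters, DESeq2 1.42.0, a replicate block and 6 fits without 1 library. The steps were tested on simulated data. Every member is named. By rule, values in every library are given for the red cell enzymes and for members changed at least 2-fold. The rule also covers the 2 largest rises and falls past the threshold in each group. Outside this rule, such values are shown for ube2v1, ube2t, ube2s and ube2ql1, which were not called. They are also shown for the ratios of ube2ka to ube2kb and of ube2wa to ube2wb. Genes of other lists are named as the largest rise and fall past the threshold or the most abundant marker. The exceptions were chosen after their values were seen. They are alas1, cdc34a, cdc34b, nae1, uba2, uba3, ubc, ranbp9, rbck1, ankib1a, rnf216 and fzr1b. Also exceptions are the other called neutrophil markers, the heme genes shared with the erythroid list and the retina and lens markers without counts. Members, groups and lists were chosen with earlier results of these data known. The values of 1 gene of the ubiquitin list are not reported here.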

Additional observations from a re-analysis of the deposited data

How the results depend on the processing

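Both genotypes have replicates 1, 2 and 3. Deviations from the group means correlated at 0.0559, 0.122 and 0.0939 for equal numbers, and at -0.16 to 0.0643 for unequal numbers. Each deviation is from a mean of 3 libraries, so these values cannot settle whether samples were paired. The samples are not known to be paired. Not every library correlated best with its own number. With the replicate block, 5370 of all genes were called, against 6039, and 5 members, 3 higher and 2 lower, all 5 among the 8. The block left 1 call among the red cell enzymes, 1 among the chain-building and endoplasmic reticulum enzymes, 0 among E2-fold proteins without a ube2 name, 2 among ubiquitin and ubiquitin-like proteins, 1 each among CTLH and anaphase-promoting complex genes and 4 among cell cycle genes.

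The alternatives gave 4 to 9 members called. Of the 14 alternatives over 38 members, 482 values kept direction and side of the threshold, 25 lost a call, 9 gained one and 15 changed sign. The initiating enzymes had 2 calls with median-ratio factors, upper-quartile factors, no factors, TMM without the 50 most abundant genes and DESeq2. Chain-building and endoplasmic reticulum enzymes had 1 without a filter. Without factors, calls were 6 among E1 enzymes, 0 among E2-fold proteins, 0 among CTLH genes, 2 in the cell cycle and 0 in the epidermis. Upper-quartile factors gave 5 in the cell cycle, and DESeq2 gave 2 among E2-fold proteins. Skeletal muscle had 1 call and epidermis 2 under each other filter. The log2 fold change of ube2nb changed sign with median-ratio factors (0.0075) and DESeq2 (0.0072), the log2 fold change of ube2q1 with upper-quartile factors (-0.0093) and without factors (-0.083), and the log2 fold change of ube2d1b without factors (-0.031). The cause was not tested.

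Without 1 library in turn, members called higher ranged from 3 to 8 and lower from 1 to 3. Calls ranged from 1 to 2 for red cell enzymes, 0 to 1 for lysine-63 enzymes, 0 to 1 for initiating enzymes, 1 to 1 for chain-building enzymes and 0 to 2 for DNA repair enzymes. By list they ranged from 0 to 1 for E2-fold proteins, 1 to 3 for ubiquitin and ubiquitin-like proteins, 1 to 2 for CTLH, 0 to 2 for the anaphase-promoting complex, 2 to 4 for neutrophils, 2 to 7 for the cell cycle, 0 to 1 for skeletal muscle, 0 to 2 for epidermis and 1 to 5 for liver and exocrine pancreas. Log2 fold changes that changed sign ranged from -0.20 to 0.11 for ube2al, -0.14 to 0.0088 for ube2d3, -0.18 to 0.061 for ube2g1a, -0.062 to 0.042 for ube2nb and -0.24 to 0.91 for ube2ql1. Ube2ql1, ube2o and ube2d4 had the fewest counts of the members, but ube2j1 and ube2l3b, with more, lost their calls under 8 and 7 alternatives, against 5 each for ube2o and ube2d4. Whether depth had a part was not tested.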
